A study of Mus musculus with 12 samples.

Results

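The vascular endothelial growth factor (VEGF) family was described in CT-26 tumors as 10 genes, namely the ligands Vegfa, Vegfb, Vegfc, Vegfd and Pgf, the receptors Flt1, Kdr and Flt4, and the coreceptors Nrp1 and Nrp2. They were taken by gene symbol, with earlier results of these data known, and they are 10 of the 30630 mouse genes listed for each tumor. CT-26 is a mouse colon carcinoma cell line. The cells were injected subcutaneously in Matrigel into male BALB/c mice aged 4 to 6 weeks at purchase, so every tumor in both groups grew from the same line outside the colon. Swimming lasted up to 30 min per session, with 2 sessions daily and 6 training days per week, until the experiment ended after 3 weeks, and mice in the control group carried the same tumors without the swimming program. RNA was sequenced from 6 of the 10 tumors in each group, each from a different mouse, and the comparison asks whether the mRNA of this pathway differed after swimming.

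VEGF ligands are secreted dimers that bind receptor tyrosine kinases on endothelial cells. VEGFA, which cells make more of when oxygen is low, acts mainly through VEGFR2 (the product of Kdr) to drive the sprouting and permeability of blood vessels. VEGFR1 (Flt1) binds VEGFA, VEGFB and placental growth factor (Pgf) and can hold ligand away from VEGFR2, VEGFR3 (Flt4) with its ligands VEGFC and VEGFD is best known from lymphatic vessels, and the neuropilins present ligand to the receptors.

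The RefSeq promoters of the 10 genes were read to see which of them hold the core letters bound by hypoxia-inducible factor (HIF), since the study placed Vegfa and Kdr downstream of HIF-1α. For each gene the 250 bases before the annotated start nearest to its outer end were searched on both strands for ACGTG and for GCGTG, and matches of different motifs may share bases. GCGTG was present in 6 of 10 members (Vegfb, Pgf, Flt1, Kdr, Nrp1 and Nrp2) and in 28.2% of all 32851 RefSeq windows of that length. The Pgf, Flt4 and Nrp1 windows lie wholly inside their genes, those of Pgf and Flt4 with 250 of 250 bases in exons and that of Nrp1 with 0. The Vegfd window has 144 bases in exons and the Nrp2 window 32. ACGTG was present in 0 of 10 members and in 16.6% of all windows. The windows of Vegfa, Flt1 and Kdr are shown because the ligand and its main receptors are compared most closely here. They are given 5′ to 3′ along the gene, with HIF core letters of either strand in capitals.
Vegfa (GRCm38.p6, chr17:46032378-46032627, minus strand): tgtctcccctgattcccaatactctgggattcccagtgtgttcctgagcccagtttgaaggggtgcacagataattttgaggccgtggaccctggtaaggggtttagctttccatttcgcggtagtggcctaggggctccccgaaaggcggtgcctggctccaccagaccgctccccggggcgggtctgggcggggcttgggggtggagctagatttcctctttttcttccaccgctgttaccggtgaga
Flt1 (GRCm38.p6, chr5:147726012-147726261, minus strand): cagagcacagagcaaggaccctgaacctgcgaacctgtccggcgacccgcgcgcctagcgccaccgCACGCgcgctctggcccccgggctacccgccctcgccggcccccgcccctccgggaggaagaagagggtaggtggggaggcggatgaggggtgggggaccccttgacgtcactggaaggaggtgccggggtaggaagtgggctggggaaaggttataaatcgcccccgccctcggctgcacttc
Kdr (GRCm38.p6, chr5:75978456-75978705, minus strand): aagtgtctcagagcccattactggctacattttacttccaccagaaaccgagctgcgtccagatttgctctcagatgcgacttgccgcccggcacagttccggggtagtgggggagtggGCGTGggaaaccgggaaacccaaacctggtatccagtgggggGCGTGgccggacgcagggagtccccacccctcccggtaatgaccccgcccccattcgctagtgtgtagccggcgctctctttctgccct
The Vegfa and Flt1 windows lie just outside their genes, and the last 3 bases of the Kdr window are exon. Kdr held GCGTG 131 and 89 bases before its start, Flt1 held it on the opposite strand 184 bases before, and the Vegfa window held neither core. RefSeq lists another start inside Vegfa, and its window (chr17:46025164-46025413, with 218 of 250 bases in exons and 67 in coding exons) held 1 ACGTG and 1 GCGTG. The GC box GGGCGG was in 9 of 10 members, all but Vegfd, and in 32.7% of all windows. The share of G and C in the member windows ran from 42.4% (Vegfd) to 76.4% (Vegfb). The shares over all windows were not matched for it, for any of these motifs. Sequences up to 250 bases from a start were read, so nothing is said of sites farther away.

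Expression was given in FPKM, a read number divided by the length of the gene and by the depth of the library, so levels can be set side by side between genes. All values are sums over the transcripts of a gene, from 2 annotated transcripts for Vegfd and Flt4 to 13 for Vegfa, and isoforms were not separated. Vegfa had the highest mean of the family, 40.6 FPKM over the 12 tumors, and Nrp2, a coreceptor for VEGFA and VEGFC, was next at 40.3 FPKM. Vegfb, the ligand of Flt1 that is best known from muscle and fat, followed at 16.3 FPKM. Nrp1 (6.26 FPKM), Vegfd (5.53), Flt1 (4.03), Pgf (3.63) and Kdr (3.15) formed a middle range. Flt4 (0.757 FPKM) and Vegfc (0.482) were lowest.

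Control 1 stood apart from its group in the mean log2 level of endothelial and of adipocyte markers, and swimming 5 in that of macrophage markers. Control 1 also had the highest summed fibroblast markers and swimming 5 the highest summed skeletal muscle markers. Neither of these lists was flagged for a tumor that stood apart. Without control 1 and swimming 5, a choice made after seeing the data, 0 of the 10 genes passed adjustment in limma either.

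Neighbors in this order were compared within each tumor on log2(FPKM + 1) by two-sided exact sign-flip tests adjusted over the 9 neighbors. Vegfa and Nrp2 did not differ beyond their spread, with Vegfa higher in 7 of 12 tumors (adjusted p = 0.922). Nrp2 exceeded Vegfb, Vegfb exceeded Nrp1, and Kdr exceeded Flt4 in 12 of 12 tumors (exact sign-flip test, adjusted p = 0.00146 each). Flt4 exceeded Vegfc in 10 of 12 tumors (exact test, adjusted p = 0.011). Vegfd exceeded Flt1 in 9 of 12 tumors (exact test, adjusted p = 0.0281), and this no longer passed without control 1 (0.0563), control 2 (0.0545) or swimming 5 (0.0563). For the other neighbors, Nrp1 and Vegfd (adjusted p = 0.0747), Flt1 and Pgf (0.146) and Pgf and Kdr (0.374), the exact tests did not pass, although the first of them passed without control 3 (0.0404) or swimming 4 (0.0193). The family therefore spanned 3 ranges in every tumor, with Vegfa, Nrp2 and Vegfb above the middle range and Flt4 and Vegfc below it.

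**Figure D1:**
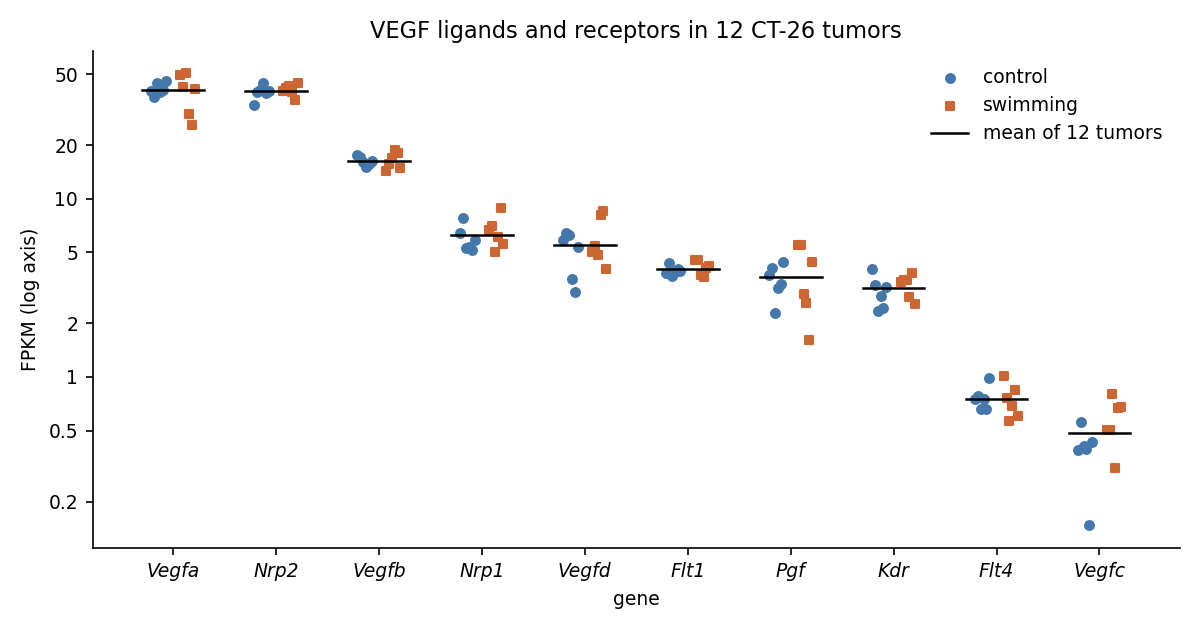
Level of each of the 10 genes in each tumor. The y axis is FPKM on a log axis, circles are control tumors, squares are swimming tumors and lines are means of 12 tumors, ordered from Vegfa (40.6 FPKM) to Vegfc (0.482 FPKM). The step from Vegfb to Nrp1 and the step from Kdr to Flt4 separate all tumors, while Vegfa and Nrp2 overlap.

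Of the 10 genes, 0 differed between the groups at an adjusted p below 0.05 in limma, and 0 did so at an unadjusted p below 0.05, which Vegfc reached when single tumors were left out. Over all 19018 genes tested, 0% passed the adjusted threshold and 5.56% the unadjusted one. Control and swimming tumors overlapped for all 10 genes, where 0.147% of all genes tested had groups that did not overlap. The log2 fold change was above 0 for 8 members and below 0 for Vegfa and Flt4, beside 51.7% of all genes above 0, and its median was 0.04 for the members and 0.00 for all genes tested. All 10 members had passed the filter of at least 0.1 FPKM in at least 6 tumors. In whole tumors, fewer cells of a type and less RNA per cell cannot be told apart.

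Vegfa (ENSMUSG00000023951, chr17:46016993-46032369) encodes the main ligand of VEGFR2. Its level was 40.2, 37.1, 44.5, 39.5, 40.9 and 45.9 FPKM in control tumors 1 to 6 and 49.2, 42.1, 50.5, 29.9, 25.9 and 41.2 FPKM in swimming tumors 1 to 6. Swimming tumors 1 and 3 were above every control tumor, swimming tumors 4 and 5 were below every control tumor, and the other 2 lay among the controls. The mean was 41.3 ± 3.29 FPKM in control tumors and 39.8 ± 10.02 FPKM in the swimming group (SD, n = 6 each). The log2 fold change of FPKM + 1, swimming minus control, was -0.09 (SE 0.15, 95% interval -0.40 to 0.22), which is a fold of 0.94 with an interval of 0.756 to 1.17 (limma adjusted p = 0.966, exact permutation p = 0.587). Folds below 0.756 lie outside this interval. Without swimming 5 the log2 fold change was 0.02, so the sign of the difference rested on that tumor.

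The swimming tumors differed more from each other in Vegfa than the control tumors did. The SD of the swimming group was 3.05 times that of the control group, and 2.13% of all genes tested had a ratio of at least 3. The difference in spread on the log2 scale did not pass a two-sided exact permutation test (p = 0.108, adjusted p = 1). This wide range had been seen in these data before the test was chosen.

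Vegfb (ENSMUSG00000024962, chr19:6982473-6987651) was among the most even members. Control tumors ranged from 14.99 to 17.7 FPKM with a median of 16.1, and swimming tumors from 14.3 to 18.7 FPKM with a median of 16.2. The highest values of the swimming group were in swimming 4 (18.7 FPKM) and swimming 5 (18.01 FPKM), the tumors with the lowest Vegfa. Between the groups the log2 fold change was 0.01 (SE 0.07, 95% interval -0.14 to 0.15; limma adjusted p = 0.994).

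Vegfc (ENSMUSG00000031520, chr8:54077606-54187096) encodes a ligand of VEGFR3 that drives lymphatic growth. It had 0.390, 0.561, 0.410, 0.393, 0.147 and 0.430 FPKM in control tumors 1 to 6 and 0.501, 0.503, 0.797, 0.309, 0.667 and 0.675 FPKM in swimming tumors 1 to 6. In the swimming group 3 tumors were above every control tumor, 0 were below, and 5 of 6 were above the control median. The mean was 0.388 ± 0.134 FPKM in control tumors and 0.575 ± 0.173 FPKM in the swimming group (n = 6 each), a ratio of 1.48. On the log2(FPKM + 1) scale, which understates the change of so weak a gene, the difference was 0.18 (SE 0.09, 95% interval -0.01 to 0.37; limma unadjusted p = 0.0586, adjusted p = 0.889; exact permutation p = 0.0693). With a pseudocount of 0.1 or 0.01 in place of 1 it was 0.48 or 0.59, and neither passed (limma adjusted p = 0.891 and 0.896). Vegfc had the smallest p of the family, and its unadjusted limma p was 0.0144 without swimming 4 and 0.0314 without control 2 (adjusted p = 0.974 and 0.857).

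Vegfd (ENSMUSG00000031380, X chromosome, 164373378 to 164402650), the other ligand of VEGFR3, had 5.06 ± 1.45 FPKM in control tumors and 5.99 ± 1.86 FPKM in the swimming group. Control tumors ranged from 2.98 to 6.38 FPKM with a median of 5.60, and swimming tumors from 4.06 to 8.56 FPKM with a median of 5.23. Swimming 4 (8.08 FPKM) and swimming 5 (8.56 FPKM) were above every control tumor and the other 4 were within the control range. This gave a log2 fold change of 0.21 (SE 0.19, 95% interval -0.22 to 0.63; limma adjusted p = 0.934).

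Pgf (ENSMUSG00000004791, chr12:85166635-85177790), a ligand of VEGFR1, was the member with the widest difference in spread. Control tumors ranged from 2.27 to 4.42 FPKM with a median of 3.53, and swimming tumors from 1.62 to 5.53 FPKM with a median of 3.68. In the swimming group 3 tumors were above and 1 was below all control tumors, swimming 5 being lowest. The means hardly differed (log2 fold change 0.03, SE 0.22, 95% interval -0.44 to 0.49, limma adjusted p = 0.992). Its spread was wider in the swimming group at an exact permutation p of 0.0411 but not after adjustment (p = 0.929), the only member to do so, where 5.28% of all genes differed in spread and 1.99% were wider in the swimming group at an unadjusted p below 0.05, and 0% passed adjustment.

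Flt1 (ENSMUSG00000029648, chr5:147561604-147726011), which encodes VEGFR1, varied least of all 10 genes, with a highest value only 1.25 times the lowest. It had 3.96 ± 0.236 FPKM in control tumors and 4.11 ± 0.393 FPKM in the swimming group (n = 6 each). Control tumors ranged from 3.68 to 4.37 FPKM and swimming tumors from 3.62 to 4.55 FPKM, with 2 swimming tumors above and 1 below all controls. The groups differed by a log2 fold change of 0.04 (SE 0.07, 95% interval -0.10 to 0.18; limma adjusted p = 0.961).

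Kdr (ENSMUSG00000062960, chr5:75932827-75978458) encodes VEGFR2, the main signaling receptor of VEGFA. It had 4.06, 3.28, 2.34, 2.86, 2.43 and 3.21 FPKM in control tumors 1 to 6 and 3.40, 3.48, 3.48, 2.82, 3.82 and 2.58 FPKM in swimming tumors 1 to 6. All 6 swimming tumors were within the range of the control tumors, whose highest value was control 1. The mean was 3.03 ± 0.636 FPKM in control tumors and 3.26 ± 0.466 FPKM in the swimming group (n = 6 each). Swimming minus control, the log2 fold change was 0.09 (SE 0.11, 95% interval -0.15 to 0.33; limma adjusted p = 0.944, exact permutation p = 0.444). Kdr was the member whose swimming tumors all fell inside the control range.

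Flt4 (ENSMUSG00000020357, chr11:49609263-49652739), which encodes VEGFR3, had 0.766 ± 0.118 FPKM in control tumors and 0.747 ± 0.167 FPKM in the swimming group. Control tumors ranged from 0.659 to 0.984 FPKM and swimming tumors from 0.569 to 1.02 FPKM, with 1 swimming tumor above and 2 below all controls. The log2 fold change was -0.02 (SE 0.07, 95% interval -0.18 to 0.14, limma adjusted p = 0.986). Flt4 is also weak, so the log2(FPKM + 1) scale shortens this interval. With a pseudocount of 0.1 or 0.01 in place of 1 the SE was 0.16 or 0.17.

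Nrp1 (ENSMUSG00000025810, chr8:128358604-128503363), a coreceptor of VEGFR2 that also binds semaphorins, had 5.97 ± 1.01 FPKM in control tumors and 6.54 ± 1.38 FPKM in the swimming group. Control tumors ranged from 5.16 to 7.79 FPKM and swimming tumors from 4.998 to 8.90 FPKM, the highest being swimming 5. For Nrp1 the log2 fold change was 0.11 (SE 0.12, 95% interval -0.16 to 0.37; limma adjusted p = 0.943). An exon of Nrp1 overlaps the microRNA gene Mir1903 on the same strand. Nrp2 (ENSMUSG00000025969, chr1:62703285-62818695) had 39.7 ± 3.55 FPKM in control tumors and 40.8 ± 3.13 FPKM in the swimming group. Its control tumors ranged from 33.5 (control 1) to 44.5 FPKM and its swimming tumors from 35.6 (swimming 5) to 44.5 FPKM. The log2 fold change of Nrp2 was 0.04 (SE 0.07, 95% interval -0.11 to 0.19; limma adjusted p = 0.967).

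**Figure D2:**
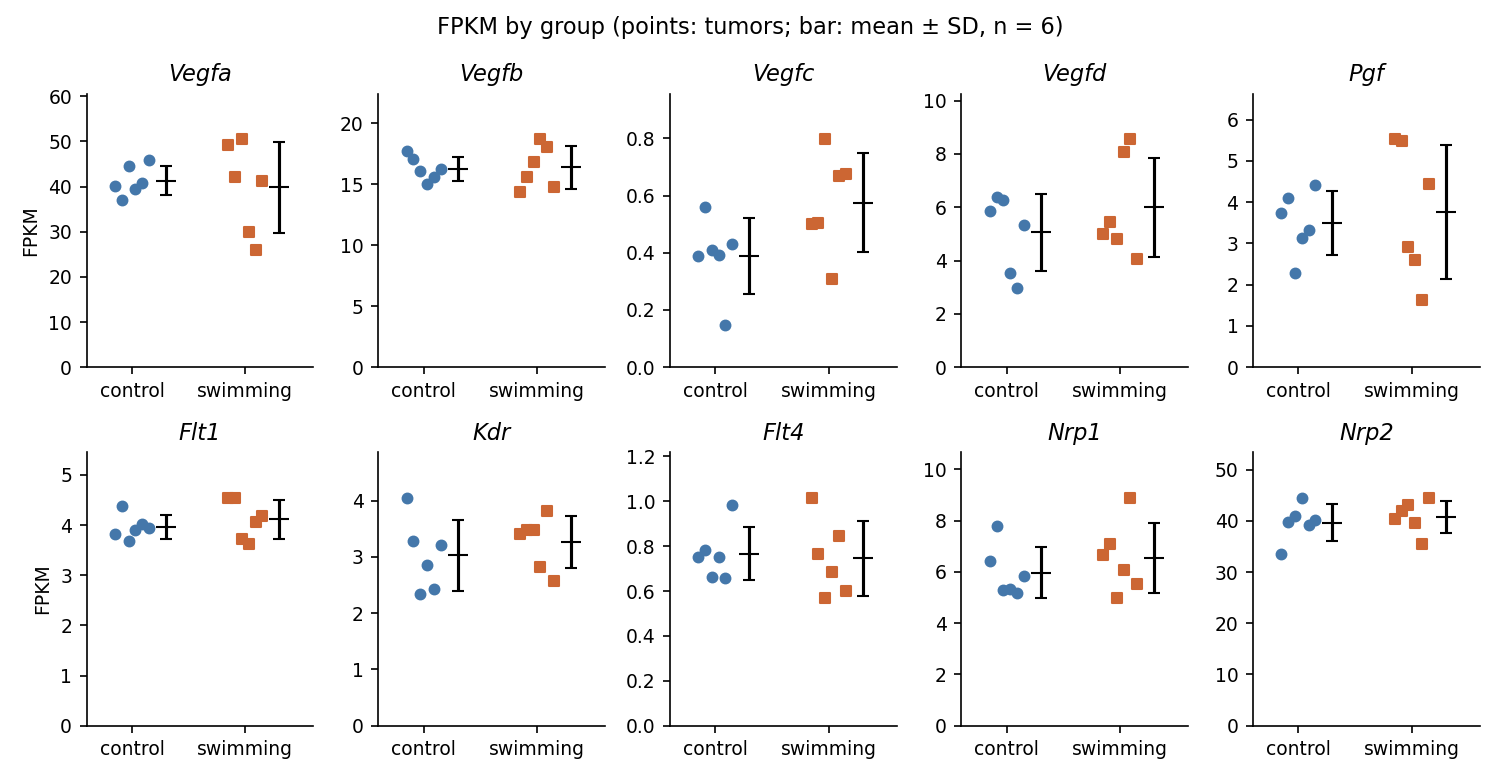
FPKM of each gene in the control group (circles) and the swimming group (squares). Points are tumors, and bars beside them are the mean ± SD (n = 6 each). The groups overlap for every gene, and the swimming tumors of Vegfa run from 25.9 to 50.5 FPKM where the control tumors run from 37.1 to 45.9 FPKM.

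**Figure D3:**
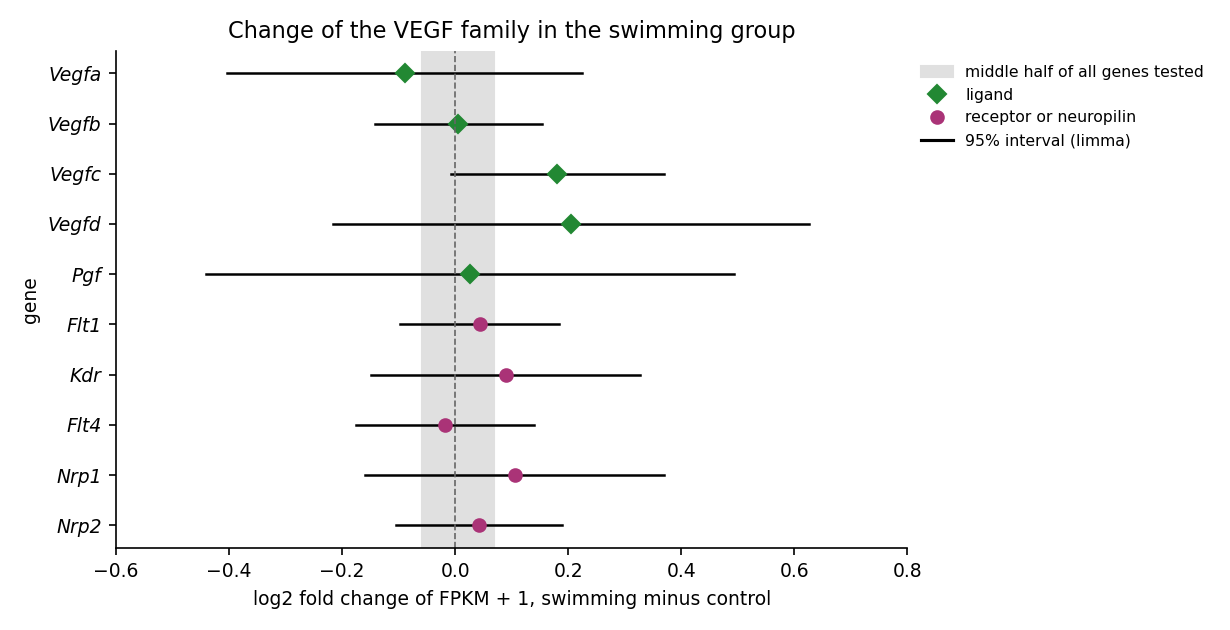
Log2 fold change of FPKM + 1, swimming minus control, for each gene, with the 95% interval from limma as a line. The shaded band holds the middle 50% of all 19018 genes tested, from -0.06 to 0.07. All 10 intervals contain 0, and those of Flt1, Flt4, Vegfb and Nrp2 are the shortest on this scale. The scale shortens the intervals of the weak genes Flt4 and Vegfc.

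To set Vegfa and Kdr beside the rest of the family, differences of log2(FPKM + 1) were taken within each tumor, and 8 of them were compared between the groups by two-sided exact permutation tests. Vegfa relative to Vegfb changed by -0.10, relative to Vegfc by -0.27, relative to Vegfd by -0.29 and relative to Pgf by -0.12 in the swimming group. Kdr relative to Flt1 changed by 0.05, relative to Flt4 by 0.11, relative to Nrp1 by -0.02 and relative to Nrp2 by 0.05. None of the 8 passed, with the smallest exact permutation p at 0.134 (Vegfa relative to Vegfc) and adjusted p-values of 0.881 to 0.887. The changes moved with single tumors and settings. Without swimming 5 Vegfa changed by -0.14 relative to Vegfc and by -0.08 relative to Vegfd, and without control 3 by -0.0064 relative to Pgf. With a pseudocount of 0.1 the change relative to Vegfc was -0.57 (exact permutation p = 0.0541, adjusted p = 0.433).

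Vegfa made up most of the summed ligand FPKM in both groups, with 62.1 ± 3.26% in control tumors and 59.0 ± 8.27% in the swimming group (SD, n = 6 each). Vegfb made up 24.5% and 25.2%, Vegfd 7.55% and 9.39%, Pgf 5.26% and 5.55%, and Vegfc 0.582% and 0.871%. The summed ligand level was 66.5 ± 4.10 FPKM in control tumors and 66.5 ± 8.35 FPKM in the swimming group. Within the swimming group the composition was uneven. In swimming 4 and swimming 5 the Vegfa share was 50.2% and 47.3%, while Vegfb took 31.4% and 32.9% and Vegfd 13.6% and 15.6%. In the other 10 tumors the Vegfa share ran from 56.9% to 66.6%.

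**Figure D4:**
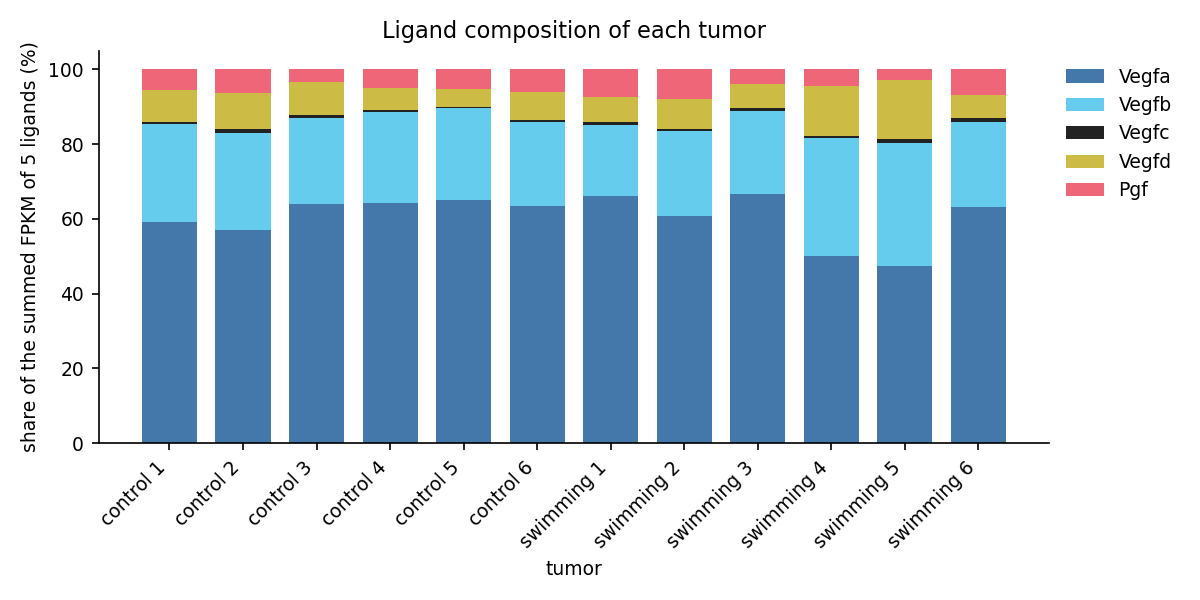
Share of each ligand in the summed FPKM of the 5 ligands (y axis, %) in each tumor (x axis). Vegfa is the largest share in all 12 tumors, and swimming 4 and swimming 5 have the smallest Vegfa shares (50.2% and 47.3%) with the largest Vegfd shares (13.6% and 15.6%).

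Among receptors and coreceptors, Nrp2 made up 74.2 ± 3.54% of the summed FPKM in control tumors and 73.5 ± 3.96% in the swimming group. Their summed level was 53.4 ± 3.16 FPKM and 55.5 ± 2.09 FPKM. Flt1 was higher than Kdr in 11 of 12 tumors, with a mean ratio of 1.35 ± 0.256 in control tumors and 1.28 ± 0.207 in the swimming group. The exception was control 1, at 0.944. The ratio of Nrp2 to Nrp1 was 6.81 ± 1.36 in control tumors and 6.52 ± 1.65 in the swimming group.

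Since Kdr, Flt1 and Flt4 are known from endothelial cells, each member was compared across the 12 tumors with the score of 6 gene lists, which is the mean log2 value of the list's genes centered on all tumors. Of 60 relations, 1 passed adjustment. Kdr rose with the 23 endothelial markers, with Pearson r = 0.88 and Spearman rho = 0.965 (n = 12, adjusted permutation p = 0.0006 and 0.0012). The relation was present in the control group alone (r = 0.916, n = 6) and in the swimming group alone (r = 0.844, n = 6), and without control 1 and swimming 5, the tumors farthest from the median score, r was 0.883. For Flt1 the r with the same score was 0.01 (rho = 0.21, adjusted permutation p = 0.986 and 0.711) and for Flt4 it was 0.31 (rho = 0.392, adjusted permutation p = 0.597 and 0.622). Whether the relation of Kdr differs from that of Flt1 was not tested. The member genes were not part of the endothelial list. Kdr also had r = 0.74 with the fibroblast score (rho = 0.615, adjusted permutation p = 0.112 and 0.427), with 0.94 in control tumors, 0.46 in swimming tumors and 0.49 without control 1 and swimming 5. Whether the relation of Kdr with the endothelial score differs from that with the fibroblast score was not tested.

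Nrp1 had r = 0.59 with the endothelial score (rho = 0.587, adjusted permutation p = 0.274 and 0.483). Nrp2 ran the other way, at r = -0.79 (rho = -0.406, adjusted permutation p = 0.112 and 0.608), and this rested on control 1 and swimming 5, since r was -0.11 without them. Vegfa had r = -0.40 with the endothelial score (rho = -0.182, adjusted permutation p = 0.471 and 0.723), and r was -0.02 without the same tumors. With the HIF-induced genes Vegfa had r = 0.46 (rho = 0.531, adjusted permutation p = 0.456 and 0.608), with 0.16 in control tumors and 0.80 in the swimming group, and r was 0.03 without swimming 3 and swimming 5.

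Among the members themselves, 45 pairs were compared and none passed adjustment (lowest adjusted permutation p = 0.197 for r and 0.12 for rho). The closest pair was Vegfb and Vegfd, with r = 0.75 and rho = 0.776 (adjusted permutation p = 0.197 and 0.12), 0.75 in the control group, 0.84 in the swimming group and 0.77 without swimming 1 and swimming 4. Pgf and its receptor Flt1 had r = 0.68 and rho = 0.72 (adjusted permutation p = 0.197 and 0.162), and 0.86 without swimming 1 and swimming 5. Vegfa had r = -0.59 with Vegfd, -0.64 with Vegfb and 0.60 with Pgf (rho = -0.476, -0.517 and 0.427, adjusted permutation p = 0.197 each for r, and 0.359, 0.359 and 0.421 for rho). These 3 rested on swimming 4 and swimming 5, without which r was 0.08, -0.18 and 0.02. The tumors left out for each pair were those farthest from the median of its first gene, here Vegfa. Leaving out the extremes of that gene can by itself weaken r, and the tumors left out differ between pairs. Vegfa and Kdr had r = -0.13 (rho = -0.0629, adjusted permutation p = 0.839 and 0.872).

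**Figure D5:**
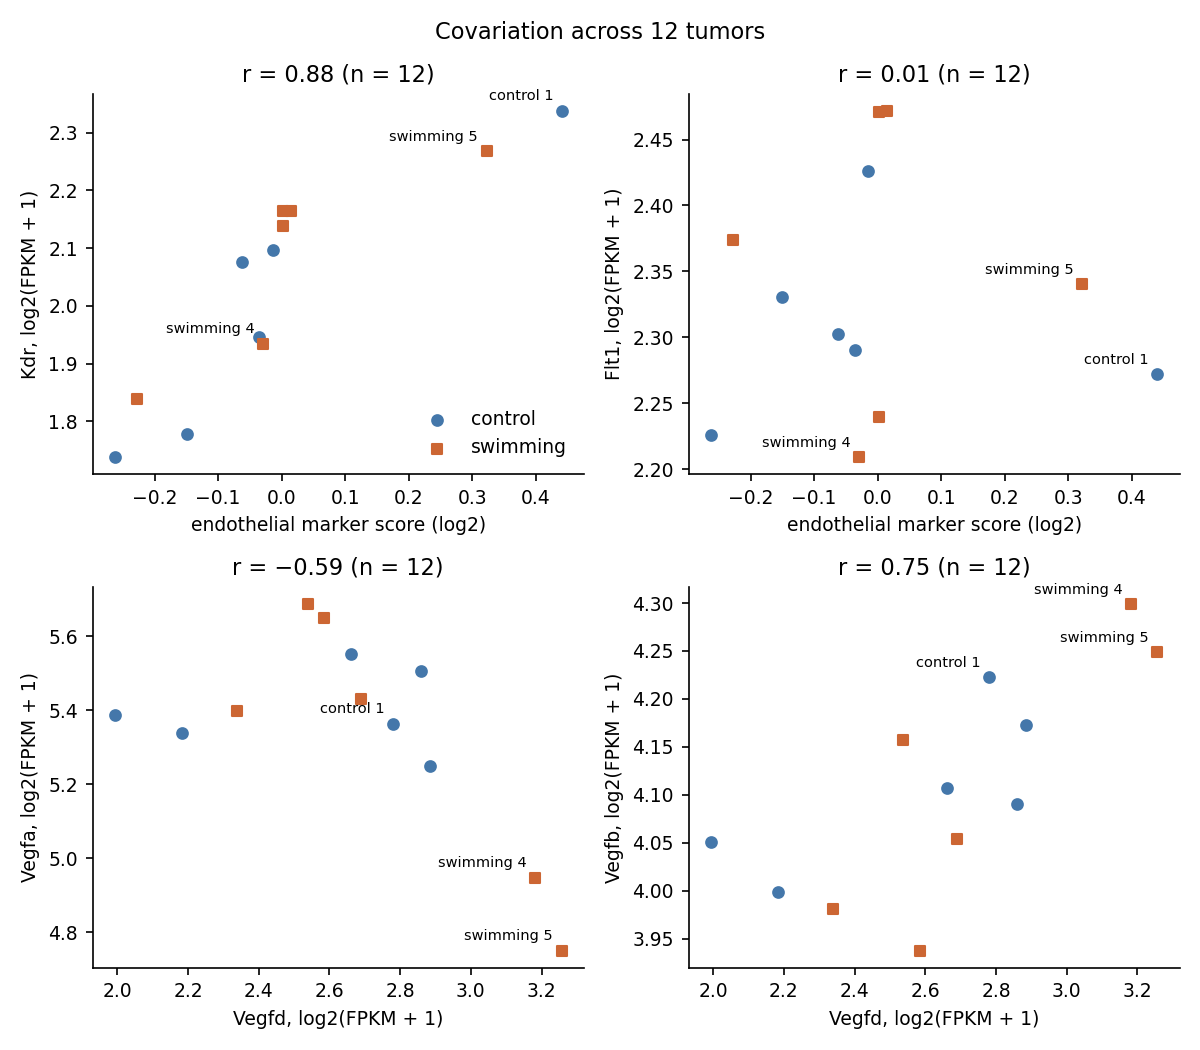
Kdr and Flt1 against the endothelial marker score, and Vegfa and Vegfb against Vegfd, each on a log2 scale with 1 point per tumor (circles control, squares swimming). Kdr rises with the score (r = 0.88) while Flt1 had r = 0.01, and in the plots against Vegfd the tumors swimming 4 and swimming 5 stand apart with low Vegfa and high Vegfb.

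The genes closest to each member were read from Pearson r over the 12 tumors among about 10994 protein-coding genes with a mean of at least 1 FPKM. With so many genes and 12 tumors from a single experiment, they are given as a description. Closest to Vegfa were Kdm6b (r = 0.947), Mmp12 (0.932), Rps19 (0.915), Ddit3 (0.913) and Slc27a1 (0.903). Closest to Kdr were Amdhd2 (r = 0.954), the macrophage receptor gene Csf1r (0.911), Plat (0.908), Bscl2 (0.904) and Ece1 (0.901). Closest to the other ligands were Cdh26, Fanci and Bod1 for Vegfb (r of 0.912 to 0.947), Nab1, Cd72 and Khsrp for Vegfc (0.852 to 0.867), Loxl3, Pcnt and Pfkm for Vegfd (0.944 to 0.952), and Sox9, Rps12 and Runx1 for Pgf (0.863 to 0.879). Closest to the other receptors were Pcgf5, Gpr84 and Mrpl13 for Flt1 (0.794 to 0.820), Adamts6, Crtc3 and Gpcpd1 for Flt4 (0.827 to 0.850), Sec16b, Becn1 and Clec16a for Nrp1 (0.857 to 0.899), and Wars, Tgoln1 and Sec62 for Nrp2 (0.889 to 0.901). No member was among the closest genes of another, although Vegfc and Flt4, with means below 1 FPKM, were not candidates. Of the 20 endothelial markers above 1 FPKM, 19 had a positive r with Kdr (median 0.73), 12 with Flt1 (0.04) and 4 with Vegfa (-0.38). Kdr also had a positive r with 8 of 8 fibroblast markers (median 0.69) and 9 of 9 macrophage markers (0.40). With the macrophage score Kdr had r = 0.55 (adjusted permutation p = 0.3), and 0.12 without control 3 and swimming 5. Among all candidate genes, 45.5% had r above 0.12 with Kdr, 34.9% above 0.11 with Flt1 and 27.5% above 0.13 with Vegfa. Below 0, 31.2% had r under -0.13 with Kdr, 33.1% under -0.15 with Flt1 and 48.5% under -0.13 with Vegfa. The share of candidates with r above 0, the cutoff of the marker counts, was not counted. It lies between 45.5% and 68.8% for Kdr, 34.9% and 66.9% for Flt1, and 27.5% and 51.5% for Vegfa.

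The genes that carry the VEGF signal inside the cell were also compared between the groups. Their values come from all cells of a tumor, and the part from cells with VEGF receptors is not known. Of 54 genes of VEGF receptor signaling, 0 passed adjustment in limma, 0 were higher and 1 was lower at an unadjusted p below 0.05, beside 3.11% of all genes higher and 2.46% lower. The exception was Src, a kinase downstream of VEGFR2, at 20.8 ± 1.24 FPKM in control tumors and 18.6 ± 0.745 FPKM in the swimming group (log2 fold change -0.15, SE 0.05, limma adjusted p = 0.889). The list had 35 genes with a log2 fold change above 0 and a median of 0.03, beside 51.7% of all genes tested above 0. Extracellular regulators, such as the thrombospondins and heparan sulfate carriers that bind VEGF, numbered 13 tested out of 16 listed. Of these, 0 reached an unadjusted p below 0.05 in limma, beside 5.56% of all genes tested. A log2 fold change above 0 was found for 5 (median -0.0039), beside the same 51.7% of all genes. Adamts3 and Ccbe1, which act together in the processing of VEGFC, were at 0.0085 and 0.0278 FPKM in control tumors and 0.0074 and 0.0233 FPKM in the swimming group, too low to be tested.

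Neuropilins also bind class 3 semaphorins together with plexins. Of 12 such partners tested out of 14 listed, 0 passed adjustment, 0 were higher and 1 was lower at an unadjusted p below 0.05, beside 2.46% of all genes lower. This was Gipc1, an adaptor of the neuropilin tail (45.3 ± 3.91 and 41.3 ± 1.26 FPKM, log2 fold change -0.13, SE 0.06, limma adjusted p = 0.889), and with trimmed mean scaling 0 partners reached that threshold. Sema3a, the ligand of Nrp1, had 19.6 ± 6.82 FPKM in control tumors and 15.7 ± 2.32 FPKM in the swimming group, and the plexin gene Plxna1 had 28.2 ± 3.24 and 30.6 ± 1.55 FPKM. Neither reached an unadjusted p below 0.05 in limma.

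Of 21 HIF-induced genes, 0 passed adjustment, 4 were higher and 0 were lower at an unadjusted p below 0.05, and 19 had a log2 fold change above 0 with a median of 0.19. Over all genes tested, 3.11% were higher at that threshold and 51.7% had a log2 fold change above 0. With trimmed mean scaling 3 genes were higher. The 4 genes were Bnip3, a mitophagy receptor (49.9 ± 18.5 FPKM in control tumors and 77.3 ± 19.8 in the swimming group), the glycolytic genes Eno1 (242 ± 33.6 and 287 ± 30.02 FPKM) and Pfkfb3 (2.39 ± 1.151 and 3.55 ± 0.764 FPKM), and P4ha1, a collagen hydroxylase (45.6 ± 5.69 and 55.0 ± 10.2 FPKM), each with a limma adjusted p of 0.889. Their exact permutation p-values were 0.0303, 0.0346, 0.0693 and 0.0909 in that order. The score of the list was 0.20 higher in the swimming group, with an exact permutation p of 0.16. Vegfa, a known HIF target that was not part of this list, had a log2 fold change of -0.09 over the same tumors.

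The cells that make these receptors were read from marker genes. Of 23 endothelial markers, 0 reached an unadjusted p below 0.05 in limma, beside 5.56% of all genes tested, and their median log2 fold change was 0.04. Pecam1, which encodes CD31, was at 8.94 ± 1.67 FPKM in control tumors and 9.11 ± 1.42 FPKM in the swimming group, and Cdh5 at 14.8 ± 2.45 and 14.8 ± 2.21 FPKM. The summed endothelial level ran from 447 to 614 FPKM in control tumors and from 424 to 546 FPKM in the swimming group, most of it from Esm1 (311 FPKM on average). Swimming 5 was the lowest tumor in this sum. Its endothelial marker score, in which each gene counts alike on the log2 scale, was 0.32, against -0.23 to 0.01 in the other swimming tumors. Of 6 lymphatic markers 2 were tested, both with a log2 fold change below 0 (median -0.31). Prox1, Mmrn1 and Reln had means of at most 0.0122 FPKM in either group, while Lyve1 (10.7 ± 6.93 and 7.56 ± 4.15 FPKM) and Pdpn (31.9 ± 6.70 and 25.2 ± 7.14 FPKM), which other cells also make, were measured and did not differ at an unadjusted p below 0.05. Flt4 was therefore measured in tumors in which the defining lymphatic marker Prox1 was near 0.

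Marker lists of mural cells, macrophages, fibroblasts, skeletal muscle and adipocytes each had 0 genes at an unadjusted p below 0.05 in limma, beside 5.56% of all genes tested. At that share lists this short often hold none. Their median log2 fold changes were 0.06, 0.09, 0.06, 0.39 and -0.05. Summed skeletal muscle markers ran from 3.27 to 202 FPKM in control tumors and from 2.55 to 278 FPKM in the swimming group, and summed adipocyte markers from 2.71 to 143 FPKM (control 1) and from 3.24 to 28.2 FPKM. Adipocyte markers numbered 5 tested of 7 listed. The part of these tissues in the values of the VEGF genes was not tested. Of 9 epithelial markers 5 were tested, 0 of them reaching an unadjusted p below 0.05 in limma, beside the same share of all genes. Their median log2 fold change was -0.10, with 4 of the 5 below 0. Krt20 (154 ± 32.2 FPKM in control tumors and 125 ± 19.1 FPKM in the swimming group) and Krt18 (10.1 and 9.37 FPKM) were present. Epcam (0.0312 and 0.0531 FPKM), Vil1 (0.028 and 0.0405) and Cdx2 (0.103 and 0.0834) were near 0. Krt8 was uneven, at 29.0 ± 49.5 FPKM in control tumors and 6.11 ± 4.78 FPKM in the swimming group.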

How the data were processed

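RNA was sequenced from 12 CT-26 tumors, 6 per group. The authors removed ribosomal RNA, mapped reads with HISAT2 2.0.5 and computed FPKM per gene with StringTie 1.3.3, and these deposited FPKM were used. The methods name the human genome hg38 and the processing notes list hg38 and GRCm38, while the identifiers are mouse Ensembl genes. Coordinates and transcripts are from GENCODE M21 (GRCm38), matched by identifier, and promoters from RefSeq (GRCm38.p6), where all 10 members matched and the window nearest to the GENCODE 5′ end was counted. Symbols were given to 30542 of 30630 genes. Aldoa was left out of the HIF-induced list because its symbol has several identifiers.

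FPKM hold no read numbers, so absolute depth is unknown. Relative depth, from the most frequent ratio of weak values to control 1, was 0.694 in control 2 and 0.872 to 1 in the others, so weak genes are least precise in control 2. FPKM sums ranged from 380139 to 407109, and 0 columns of other samples were present.

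The 19018 genes at or above 0.1 FPKM in 6 or more tumors were compared on log2(FPKM + 1) with limma 3.58.1 in R 4.3.3 (lmFit, eBayes with trend), Benjamini-Hochberg adjustment over all of them and a threshold of 0.05. Two-sided exact permutation tests used all 924 divisions into 6 and 6 (smallest p 0.00216), sign flips had a smallest p of 0.000488, and correlations used 100000 permutations. Python 3.11.15, pandas 2.3.3, numpy 2.4.6, scipy 1.17.1 and matplotlib 3.10.9 were used.

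The members and gene lists were chosen with earlier results of these data known. Named genes were all members, the 5 (Vegfa, Kdr) or 3 (others) genes with the highest r, up to 4 genes of each list at an unadjusted p below 0.05, and the most abundant markers and those near 0. Other list genes (Sema3a, Plxna1, Adamts3, Ccbe1, Pecam1, Cdh5, Lyve1, Pdpn, Krt8, Krt18) were named after their values were seen. Alternatives were pseudocounts of 0.1 and 0.01, no filter, a filter of 1 FPKM, quantile normalization, trimmed mean scaling, sample weights, eBayes without trend, a block for the replicate number, and single tumors left out. Leaving out control 1 and swimming 5 together was chosen after seeing the data. Transcript values were not analysed here.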

Additional observations from a re-analysis of the deposited data

Results flagged for a closer look

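Among 32 sets of 6 values examined, 3 held a tumor that stood apart from the other 5 by a Dixon ratio. Chance would give about 1.6 if the sets were independent. They share the same 12 tumors, so no excess over chance can be read from this count. The endothelial marker score of control 1 was 0.44, while the other control tumors lay between -0.26 and -0.01. Control 1 also had the highest Kdr (4.06 FPKM) and the lowest Nrp2 (33.5 FPKM) of the 12 tumors, and the adipocyte marker score of control 1 was 2.73, against -0.78 to 0.01 in the other control tumors. The macrophage marker score of swimming 5 was 0.44, against -0.15 to -0.01 in the other swimming tumors, and this tumor had the lowest Vegfa (25.9 FPKM) and Pgf (1.62 FPKM) and the highest Vegfd (8.56 FPKM) and Nrp1 (8.90 FPKM). None of the 10 VEGF genes itself had such a tumor in either group. The part of these tissues in the values of the VEGF genes was not tested.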

How the results depend on the processing

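Under the alternatives, 0 of the 10 members passed adjustment, and most values kept their sign. Genes at an adjusted p below 0.05 numbered 0, but 1 with sample weights and 0 to 3 when single tumors were left out (3 without control 4). Genes at an unadjusted p below 0.05 ranged from 729 to 1445 over the alternatives and from 820 to 1427 without single tumors, beside 1058. With trimmed mean scaling, 2 signaling genes and 0 neuropilin partners were at an unadjusted p below 0.05. Without control 1 and swimming 5, chosen after seeing the data, the log2 fold change of Vegfa was 0.015. With a filter of 1 FPKM, Vegfc and Flt4 were not tested.

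When single tumors were left out, log2 fold changes ranged from -0.16 to 0.022 for Vegfa, -0.031 to 0.041 for Vegfb, -0.080 to 0.18 for Pgf, -0.061 to 0.016 for Flt4 and -0.0049 to 0.079 for Nrp2. Those of the other members kept their sign, from 0.13 to 0.23 for Vegfc, 0.092 to 0.29 for Vegfd, 0.019 to 0.072 for Flt1, 0.038 to 0.16 for Kdr and 0.023 to 0.17 for Nrp1. Within-tumor changes ranged from -0.20 to 0.044 for Vegfa relative to Vegfb, -0.35 to -0.14 relative to Vegfc, -0.42 to -0.084 relative to Vegfd and -0.23 to -0.0064 relative to Pgf, and for Kdr from -0.0022 to 0.12 relative to Flt1, -0.094 to 0.032 relative to Nrp1 and -0.027 to 0.16 relative to Nrp2. The mean log2 difference ranged from -0.033 to 0.033 for Vegfa above Nrp2, 0.28 to 0.39 for Vegfd above Flt1 and 0.14 to 0.23 for Nrp1 above Vegfd. Differences in spread ranged from -0.012 to 0.11 for Nrp1, -0.027 to 0.037 for Nrp2, -0.00080 to 0.086 for Vegfc and -0.082 to 0.098 for Vegfd. The cause of these changes was not tested.

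Tumors share a number in both groups but come from different mice. Log2 values of the tumors correlated with each other at 0.975 to 0.991. The correlation used for pairing was on another scale, where tumors of different numbers averaged 0.02. On that scale same-numbered tumors ran from -0.32 to 0.006, and 0 of 6 swimming tumors were closest to the control tumor of their number. In a fit with a replicate block, the log2 fold change of Vegfa stayed -0.09, adjusted p-values of the members were 0.965 to 0.996 in limma, and 892 genes had an unadjusted p below 0.05. FPKM give no counting error, so the precision of Vegfc and Flt4, the weakest members, is known only from the spread between tumors.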
